A study of Mus musculus with 10 samples.

Results

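Pecam1, Cdh5, Kdr, Flt1, Tek, Tie1, Eng, Esam, Emcn and Vwf are 10 genes whose transcripts mark the endothelial cells that line blood vessels. They were followed through 10 mouse mammary tumor samples, each hybridized to its own Agilent mouse array with a red and a green channel. Members were found by gene name in the scanner files, synonyms included (Esam is listed there as Esam1), and 20 of 41174 probes carried such a name, for 10 of 19505 named genes. Flt1 had 5 probes, Vwf had 3, Pecam1, Cdh5, Kdr and Tek had 2 each, and the other members had 1.

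The sarcomatoid group held 5 tumors, of which 3 grew in the mammary gland (323, 307 and 594) and 2 in the lung (323 lung and 307 lung). The labels read sarcomatoid adenocarcinoma for the tumors numbered 323 and 307 and sarcomatoid carcinoma for 594, and these are pooled here. The adenocarcinoma group held 5 mammary tumors (105, 131, 470, 17 and 85). Per the study's methods the adenocarcinomas carried Pik3caH1047R;Trp53R270H;MMTV-Cre, and the sarcomatoid primaries were a Pik3caH1047R;Trp53R270H;MMTV-Cre tumor, a Pik3caH1047R;MMTV-Cre tumor with a spontaneous Trp53R245H mutation and a Trp53R270H;MMTV-Cre tumor. The methods do not give tumor numbers for these genotypes. They describe no lung tumor for the Trp53R270H;MMTV-Cre primary, and 594 is the sarcomatoid primary without a lung partner. By this design 594 is likely the tumor without a Pik3ca mutation, while 323 and 307 cannot be told apart. All tumors thus shared MMTV-Cre, in which a mouse mammary tumor virus promoter drives the recombinase mainly in mammary epithelium, and the double mutants were made on a C57BL/6 background. Ages were not given in the sources used here. Each lung tumor grew after a cell line of the primary with the same number was injected into a tail vein, so the sarcomatoid group rests on 3 tumor origins and the vessels of a lung tumor belong to the host animal.

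Endothelial cells form a sheet held together by adhesion proteins. Signals for their growth and stability reach them through the vascular endothelial growth factor (VEGF) receptors Kdr and Flt1 and the angiopoietin receptor system of Tek and Tie1. Cdh5 (VE-cadherin), Pecam1 (CD31) and Esam lie at the junctions between endothelial cells, Eng (endoglin) is a co-receptor for ligands of the TGF-beta family, and Emcn (endomucin) is a sialomucin of the cell surface. Vwf (von Willebrand factor) is a clotting protein stored in endothelial granules and made in megakaryocytes as well, and its level in endothelium is known to vary between vascular beds. ETS family transcription factors such as Erg act at many endothelial promoters through a GGAA core.

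The promoters of both receptor families are shown as examples. RefSeq promoter sequence (GRCm38.p6) was matched for 6 of the 10 members, Kdr, Flt1, Tek, Tie1, Eng and Emcn. The 250 bases before the start of 4 receptor genes are printed 5′ to 3′ on the strand of the gene, with each GGAA (or TTCC, its other strand) in capitals. The windows are chr5:75978456-75978705 (minus strand) for Kdr, chr5:147726012-147726261 (minus) for Flt1, chr4:94739039-94739288 (plus) for Tek and chr4:118489850-118490099 (minus) for Tie1.
Kdr: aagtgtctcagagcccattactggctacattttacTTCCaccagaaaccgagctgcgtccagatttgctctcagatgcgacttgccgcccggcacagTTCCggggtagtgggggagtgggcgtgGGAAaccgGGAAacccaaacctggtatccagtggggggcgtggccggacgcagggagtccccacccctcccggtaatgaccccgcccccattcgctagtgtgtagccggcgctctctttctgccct
Flt1: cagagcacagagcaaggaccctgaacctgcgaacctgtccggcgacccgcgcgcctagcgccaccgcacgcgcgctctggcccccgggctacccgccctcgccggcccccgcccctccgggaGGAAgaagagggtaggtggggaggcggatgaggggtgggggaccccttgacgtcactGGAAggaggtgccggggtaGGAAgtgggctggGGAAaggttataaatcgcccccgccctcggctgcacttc
Tek: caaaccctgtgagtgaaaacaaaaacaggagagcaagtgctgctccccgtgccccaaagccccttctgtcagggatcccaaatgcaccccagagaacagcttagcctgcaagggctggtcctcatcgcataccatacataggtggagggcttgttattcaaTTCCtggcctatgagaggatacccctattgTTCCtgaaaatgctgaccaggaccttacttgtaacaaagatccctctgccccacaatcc
Tie1: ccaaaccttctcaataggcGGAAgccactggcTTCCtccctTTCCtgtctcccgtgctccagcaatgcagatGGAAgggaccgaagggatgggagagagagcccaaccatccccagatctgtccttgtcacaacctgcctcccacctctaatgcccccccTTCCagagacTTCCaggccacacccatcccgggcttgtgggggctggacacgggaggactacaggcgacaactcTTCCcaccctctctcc

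Tie1 held 7 such matches, Kdr, Flt1 and Emcn held 4 each, Eng held 3 and Tek held 2. Across 32841 promoters of the same length the median was 3 matches, 93.5% held at least 1, 33.4% held at least 4 and 3.82% held at least 7. A match is a string of letters and was not tested as a binding site.

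Of the 20 member probes, 13 were well above background in the tumor channel on all 10 arrays and both Tek probes on 9 (all but tumor 85). The other 5 were dim, with the Flt1 probe AK005502 above background on 5 arrays, Flt1 AK084177 on 2, Kdr AK054510 on 1, and Pecam1 AK031380 and Vwf AK044921 on 0. With red read as the tumor channel, as explained next, the defining markers Cdh5, Pecam1, Kdr, Emcn and Vwf were thus detected in every tumor. In the green channel Pecam1 and Vwf were above background on all 10 arrays, Kdr and Emcn on 7 and Cdh5 on 5. Where 1 probe stands for a gene, it is the one with the highest mean signal.

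Values are log2 ratios of tumor over a common reference, and a difference is a log2 fold change. The labels name Cy3 (green) as the tumor dye, but green varied less between arrays than red (mean SD of the log2 signal 0.737 against 0.975), and the authors' normalized column of each array best matched the red over green ratio of that array (r from 0.868 to 0.926). That match shows the direction of the authors' table and does not by itself name the tumor dye. Red was read as the tumor, as the likely direction. The paper reports Krt18, Epcam and Dsp as lower and Mrc1 and Itgam as higher in its metastatic sarcomatoid group. With red as the tumor, sarcomatoid minus adenocarcinoma differences had these directions (-3.23, -2.32, -2.89, 1.61 and 1.42, in that order). If the dye label holds, every sign in this text turns and the green counts above are those of the tumors. Across all probes, tumor 470 correlated more with the sarcomatoid arrays (mean r 0.720) than with the other adenocarcinomas (0.513), while the other 9 arrays lay closer to their own group, so results are also given without tumor 470. That choice was made on the values, so leaving 470 out tends to widen differences between the groups. Results without it are descriptions and no independent support. Per the file headers, 3 versions of the scan protocol were used, called scan batches here. Batch 1 held tumor 323, batch 2 held 307, 594, 105 and 470, and batch 3 held both lung tumors with 131, 17 and 85. The share of probes above background ran from 52.3% to 83.1% per array.

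Sarcomatoid tumors and adenocarcinomas did not differ in any endothelial marker gene by the test. Of the 10 genes, 5 had a higher and 5 a lower sarcomatoid mean (48.8% of all probes were higher and 51.2% lower), with a median difference of -0.01 beside -0.01 over all probes. Differences ran from -0.76 (SE 0.61, n = 5 per group, limma adjusted p = 0.75) for Vwf to 0.29 (SE 0.32, limma adjusted p = 0.82) for Emcn. None of the 20 probes had an unadjusted limma p below 0.05, against 9.84% of all 41174 probes, and adjusted p-values of the 10 genes were 0.75 and above (0% of all probes passed). With scan batch as a term Vwf differed by -1.0004 (unadjusted p = 0.011, limma adjusted p = 0.49). Both Vwf differences include the lung tumors. Between mammary sarcomatoid tumors and adenocarcinomas Vwf differed by 0.07 (SE 0.49). By the two-sided exact permutation test of each probe over 5 against 5 arrays, p ran from 0.135 to 0.937, and 0 of 20 were below 0.05. The lowest was that of a Vwf probe above background on no array. With 1 value per tumor number, 3 against 5, exact permutation p ran from 0.214 to 0.893, with 0.018 the smallest possible. No member's groups were apart, which 1.34% of all probes reached. Without tumor 470, left out for its likeness to the sarcomatoid arrays, the median was 0.19 and 8 of 10 genes were higher. The lowest limma adjusted p was then 0.46 (Emcn), although 632 probes of the whole array passed.

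**Figure D1:**
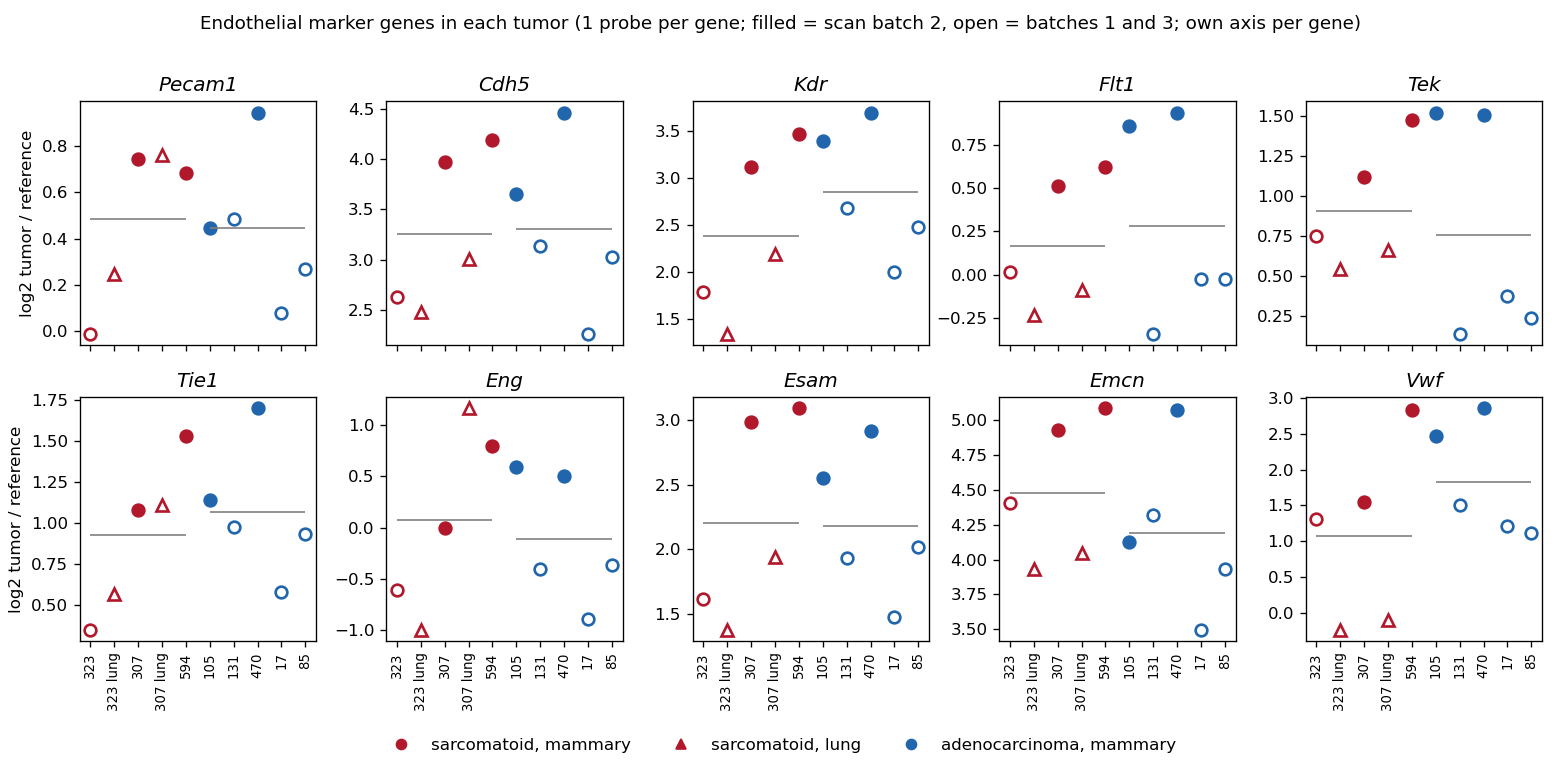
Log2 ratio of tumor over reference (y axis, own scale per gene) of the 10 endothelial marker genes in each tumor (x axis), 1 probe per gene. Red marks sarcomatoid and blue adenocarcinoma, circles mammary and triangles lung tumors, filled symbols scan batch 2 and open symbols batches 1 and 3, and grey lines are group means. Groups overlap in every panel, the filled symbols tend to be high, and in the Vwf panel the lung tumors, at -0.23 and -0.10, lie below all others.

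The VEGF receptors overlapped between the groups. Kdr, the main signaling receptor for VEGF-A, stood at 1.78, 3.11 and 3.47 in the mammary sarcomatoid tumors 323, 307 and 594, at 1.33 and 2.19 in the lung tumors 323 and 307, and at 3.40, 2.68, 3.70, 1.99 and 2.48 in adenocarcinomas 105, 131, 470, 17 and 85. Its group means were 2.38 ± 0.90 (SD, n = 5) in sarcomatoid tumors and 2.85 ± 0.69 (SD, n = 5) in adenocarcinomas, a difference of -0.47 (SE 0.46) with limma adjusted p = 0.80. Flt1, which binds VEGF-A and placental growth factor and also has a soluble form, read 0.02, 0.51 and 0.62 in the mammary sarcomatoid tumors, -0.23 and -0.08 in the lung ones, then 0.86, -0.34, 0.93, -0.02 and -0.02 in the adenocarcinomas, in the same order. Both genes were high in tumors 307, 594, 105 and 470 and low in 323 lung.

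The probes of Flt1 did not all follow 1 pattern. A second probe of NM_010228 close to the first on chromosome 5 (mm7 build of the files, minus strand) gave -0.16, 0.49 and 0.57 in the mammary sarcomatoid tumors, 0.11 and -0.01 in the lung tumors, and -0.02 to 0.82 in the adenocarcinomas. The probe of BC029674, at 146532609 to 146532668 on that chromosome, gave 1.87, 2.07 and 1.13 in the mammary sarcomatoid tumors, 0.47 and 0.53 in the lung ones, then 0.95, 1.001, 2.16, 1.76 and 1.61 in the adenocarcinomas. On this probe both lung tumors lay below all 8 mammary tumors, and tumors 105, 131 and 594 were the lowest of the mammary tumors, although 105 and 594 were among the highest on the NM_010228 probes. Which transcript of Flt1 each probe reads was not examined here, as no annotation of the mm7 build was used.

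The angiopoietin receptors Tek (Tie2) and Tie1 also overlapped between groups. Tek stood at 0.75, 1.11 and 1.47 in the mammary sarcomatoid tumors, at 0.54 and 0.66 in the lung tumors, and at 1.52, 0.13, 1.503, 0.38 and 0.24 in the adenocarcinomas. Among the adenocarcinomas Tek was high in 105 and 470 and low in 131, 17 and 85. Tie1, an orphan receptor that pairs with Tek, ranged from 0.35 (tumor 323) to 1.70 (tumor 470), with group means of 0.93 ± 0.47 (SD, n = 5) and 1.06 ± 0.41 (SD, n = 5). The differences between the groups were 0.15 (SE 0.33) for Tek and -0.14 (SE 0.26) for Tie1.

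The junction genes were likewise spread within each group. Cdh5 stood at 2.63, 3.97 and 4.19 in the mammary sarcomatoid tumors, at 2.48 and 3.01 in the lung tumors, and at 3.65, 3.13, 4.46, 2.26 and 3.02 in the adenocarcinomas. Its group means were 3.25 ± 0.78 and 3.31 ± 0.82 (SD, n = 5 each), so the difference of -0.05 (SE 0.46) was far inside the spread between tumors. Esam ran from 1.38 (323 lung) to 3.09 (594) in sarcomatoid tumors and from 1.48 (17) to 2.91 (470) in adenocarcinomas. Pecam1 ran from -0.01 (323) to 0.76 (307 lung) and from 0.08 (17) to 0.94 (470).

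The co-receptor Eng and the sialomucin Emcn also overlapped between the groups. Eng stood at -0.61, 0.00 and 0.79 in the mammary sarcomatoid tumors, at -0.99 and 1.16 in the lung tumors, and at 0.59, -0.40, 0.50, -0.88 and -0.37 in the adenocarcinomas, so the lung tumors held both its lowest and its highest value. Emcn stood at 4.41, 4.93 and 5.09 in the mammary sarcomatoid tumors, at 3.93 and 4.05 in the lung tumors, and at 4.13, 4.32, 5.07, 3.50 and 3.93 in the adenocarcinomas. All 3 mammary sarcomatoid tumors exceeded all adenocarcinomas but 470 in Emcn.

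Within the mammary gland, 8 of 10 genes had a higher mean in the 3 sarcomatoid tumors than in the 5 adenocarcinomas (48.7% of all probes did), with a median difference of 0.14. Emcn differed most, by 0.62 (SE 0.32, unadjusted p = 0.087, limma adjusted p = 0.58), and no member passed, with 0 of 20 probes at an unadjusted p below 0.05 (9.08% of all probes were). Without tumor 470 all 10 genes were higher, with a median of 0.32, and Emcn was higher by 0.84 (unadjusted p = 0.0068, limma adjusted p = 0.14). Tumor 470 was the highest of all tumors in 6 of the 10 genes, so leaving it out raises these differences by itself. With scan batch as a term this comparison rests on 307 and 594 against 105 and 470 alone. Batch 1 held only tumor 323, and batch 3 held no mammary sarcomatoid tumor. The median was then -0.13 and 4 of 10 were higher, the same as in batch 2 alone. The direction of the group as a whole thus depended on which tumors were compared.

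**Figure D2:**
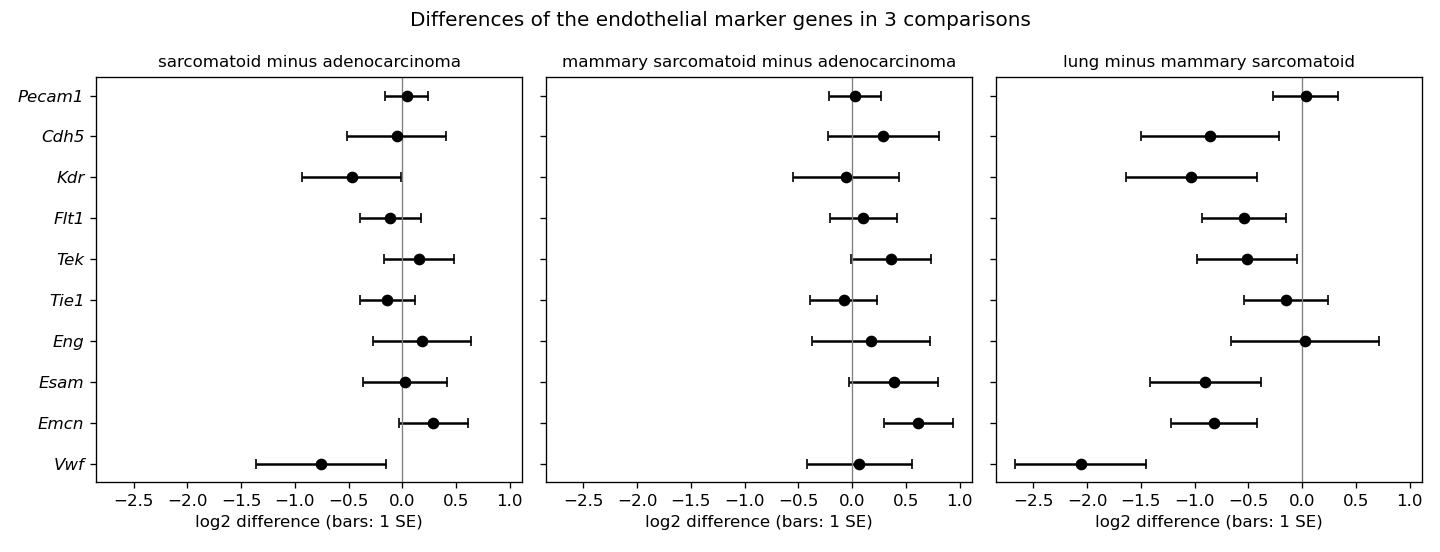
Fitted log2 differences (x axis, bars 1 SE) of the 10 endothelial marker genes (y axis) in 3 comparisons. In the left panel Vwf lies at -0.76 and the other genes at -0.47 to 0.29, Emcn reaches 0.62 in the middle panel, and Vwf reaches -2.06 in the right panel.

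The lung sarcomatoid tumors had less Vwf than the mammary ones, on both well-detected probes, though the difference did not pass the test across all probes. Vwf stood at 1.31, 1.55 and 2.83 in mammary sarcomatoid tumors 323, 307 and 594, at -0.23 and -0.10 in lung tumors 323 and 307, and at 2.47, 1.501, 2.86, 1.21 and 1.12 in adenocarcinomas 105, 131, 470, 17 and 85. Both lung values lay below all 8 mammary tumors of either type. Tumor 594, the highest of the mammary sarcomatoid tumors, likely lacks the Pik3ca mutation. The part of genotype in the difference was not tested. The fitted difference between lung and mammary sarcomatoid tumors was -2.06 (SE 0.61, n = 2 and 3, unadjusted p = 0.0083, limma adjusted p = 0.56), that is 4.17-fold lower. The second Vwf probe (NM_011708) gave 0.99, 1.48 and 2.23 in the mammary sarcomatoid tumors, -0.02 and -0.03 in the lung ones, then 2.14, 1.06, 2.40, 0.83 and 0.52 in the adenocarcinomas, with a difference of -1.59 (SE 0.58, unadjusted p = 0.024, limma adjusted p = 0.63). Both probes lie near each other on chromosome 6 of mm7, at 125709328 to 125709387 and 125708635 to 125708694 on the plus strand, so they are no independent replicates. The third Vwf probe was not above background on any array. With 2 against 3 tumors an exact permutation test has 10 splits and cannot give p below 0.10. In bulk tumor RNA, fewer cells of a type and less RNA per cell cannot be told apart.

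Vwf lay apart in the red channel by itself as well. In the scanner software's processed log2 red (tumor) signal Vwf stood at 8.44 and 8.57 in the lung tumors, and at 9.605 to 12.83 in the mammary tumors. The processed green (reference) signal ran from 8.10 to 9.72 over all 10 arrays. In the authors' deposited table Vwf read -0.30 and -0.24 in the lung tumors and 1.38 to 3.12 in the mammary tumors. Both lung tumors also lay below all 8 mammary ones with the scanner software's signals, with an offset of 10, with median centring and with outlier spots kept.

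Of the 20 member probes, 3 had an unadjusted p below 0.05 for lung against mammary sarcomatoid tumors (7.05% of all probes did) and none passed after adjustment (0.00486% of all probes did). These were both Vwf probes and the Flt1 probe BC029674, which was lower by 1.19 (fitted difference -1.19, SE 0.39, unadjusted p = 0.015, limma adjusted p = 0.62). The same 3 probes were the members with lung values below all 8 mammary tumors, against 3.19% of all probes. For lung against all 8 mammary tumors, a comparison chosen after the values had been seen, Vwf differed by -2.02 (SE 0.50, limma adjusted p = 0.38).

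Site and scan batch cannot be told apart between the lung and the mammary sarcomatoid tumors, since batch 3 held both lung tumors and no mammary sarcomatoid one. Within batch 3, Vwf was lower in the lung tumors than in adenocarcinomas 131, 17 and 85 by 1.44 (fitted difference -1.44, SE 0.16, unadjusted p = 0.00043, limma adjusted p = 0.080), a comparison also chosen after the values had been seen and one in which site and tumor type change together. On the second Vwf probe that difference was -0.83 (SE 0.19, limma adjusted p = 0.23), and on Flt1 BC029674 it was -0.95 (SE 0.26, limma adjusted p = 0.30). The other 9 genes differed there by -0.62 (Kdr) to 0.64 (Eng). With scan batch as a term in the fit over all arrays, the lung minus mammary difference of Vwf was -0.97 (limma adjusted p = 0.95). That fit compares the sites only through the adenocarcinomas.

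**Figure D3:**
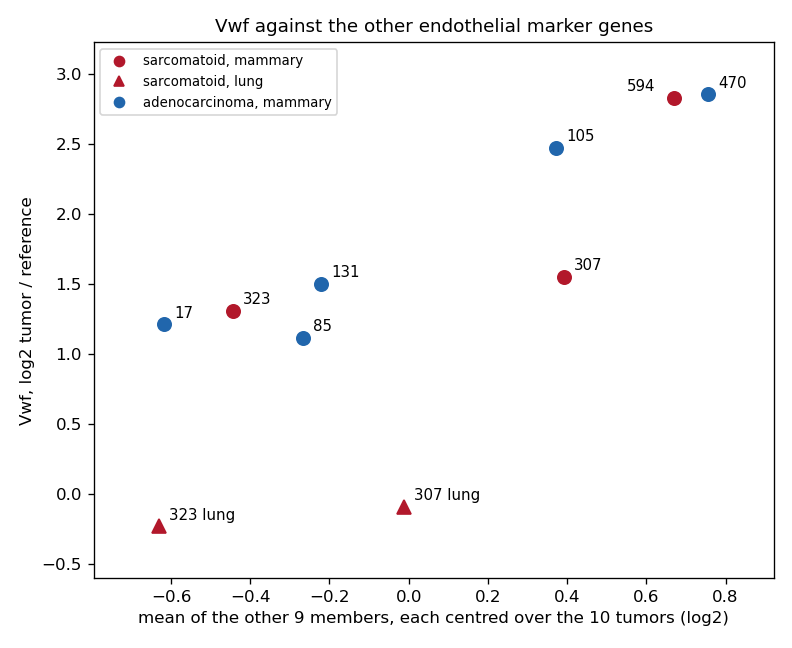
Vwf log2 ratio of tumor over reference (y axis) against the mean of the other 9 endothelial marker genes, each centred over the 10 tumors (x axis, log2), 1 point per tumor. Triangles are lung and circles mammary tumors, red sarcomatoid and blue adenocarcinoma. The lung tumors lie below all mammary tumors on the y axis, with 307 lung near the middle of the x axis (-0.01) and 323 lung at its low end (-0.63).

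Most of the other endothelial marker genes were also lower in the lung tumors under most settings. This did not hold with the scanner software's signals or with scan batch as a term. In all, 8 of 10 genes had a lower mean in lung than in mammary sarcomatoid tumors (50.8% of all probes did), with a median difference of -0.68, and Eng (0.02) and Pecam1 (0.03) were the exceptions. Kdr differed by -1.03 (SE 0.61), Esam by -0.90 (SE 0.52), Cdh5 by -0.85 (SE 0.64) and Emcn by -0.82 (SE 0.40), and none of these passed (limma adjusted p from 0.74 to 0.85). The median of the 10 genes was -0.89 with offset 10, -0.72 with median centring and -0.63 with the authors' deposited values. With the scanner software's own signals and no offset, 4 of 10 were lower and the median was 0.05. Cdh5 (1.04) and Kdr (0.89) were then higher in the lung tumors. With scan batch as a term the median was 0.02 and 5 of 10 were lower. Cdh5, Esam, Tek and Tie1 had a reference (green) signal above background on only 3 to 5 arrays, and Kdr and Emcn on 7, and the part of this in the shifts was not tested. Vwf, Eng, Flt1 and Pecam1 had a reference signal above background on all 10 arrays.

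**Figure D4:**
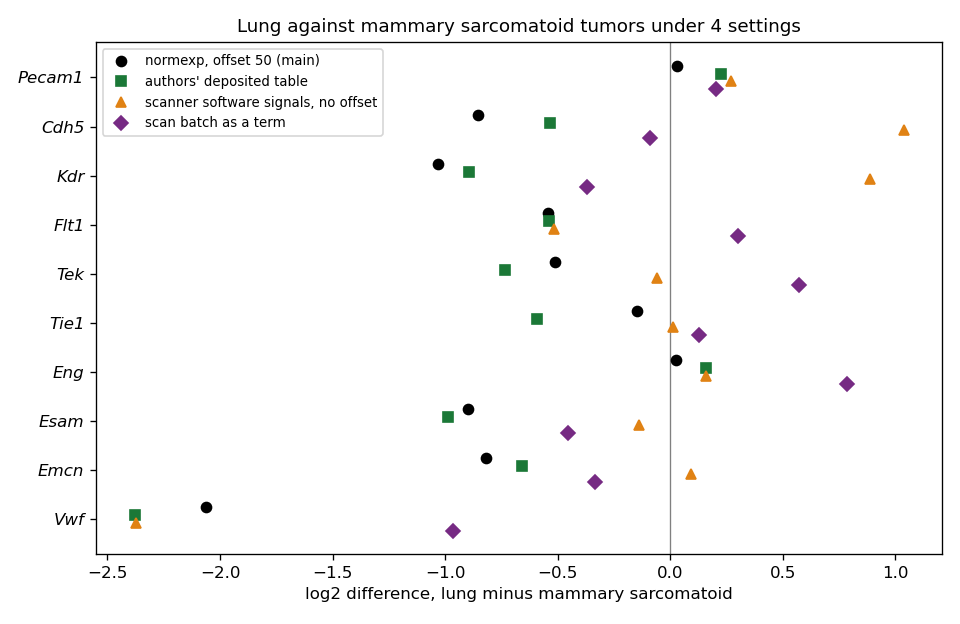
Log2 difference of lung minus mammary sarcomatoid tumors (x axis) for the 10 endothelial marker genes (y axis) under 4 settings, given by symbol. Vwf lies below 0 under all of them (-0.97 to -2.38), while Cdh5 and Kdr run from below 0 in the main setting to 1.04 and 0.89 with the scanner software's signals.

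Paired by tumor number, the lung tumor was lower than its primary in Vwf for both pairs. The fit with tumor number as a fixed block gave -1.59 for Vwf (limma adjusted p = 0.25, 2 pairs), -1.26 for its second probe and -1.47 for Flt1 BC029674. In that fit 7 of 10 genes were lower and none passed.

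The members rose and fell together across tumors, and the tumors followed scan batch more than histology. As a mean of the 10 genes, each centred over all tumors, the order was 470 (0.82), 594 (0.74), 105 (0.44), 307 (0.36), 307 lung (-0.17), 131 (-0.19), 85 (-0.27), 323 (-0.41), 17 (-0.58) and 323 lung (-0.73). The 4 highest tumors were the 4 of scan batch 2, 2 sarcomatoid and 2 adenocarcinoma. Tumors 470 and 594 shared slide 5, 105 and 307 shared slide 3, and every other tumor had a slide of its own. The part of the slide in this order was not tested. Cdh5, Kdr, Flt1, Tek, Esam and Vwf were higher in each tumor of batch 2 than in any other tumor, 6 of 10 genes against 1.7% of all probes. Within the adenocarcinomas, the mean of batch 2 (105 and 470) exceeded that of batch 3 for 10 of 10 genes (50.6% of all probes), by 0.41 to 1.39 with a median of 1.06. That median was 0.74 (10 of 10 genes) in the authors' deposited table and 0.69 (8 of 10) with the scanner software's signals. The arrays of batch 2 were also brighter, with a median log2 red signal over all probes of 7.61 to 7.94 against 6.49 to 7.18 in batch 3. Tumor 323 of batch 1 had the brightest array of all (8.04) and the third lowest member mean, so the order of the tumors was not that of brightness throughout, and the part of brightness in it was not tested. In the authors' deposited table, Flt1 and Vwf were the genes with every batch 2 tumor above all others (2.04% of all probes were). With the scanner software's signals these were Flt1, Tie1 and Vwf (2.18% of all probes). Within batch 2 the sarcomatoid minus adenocarcinoma median of the 10 genes was -0.13, the same comparison as the mammary one with scan batch as a term. Within batch 3, where both sarcomatoid tumors grew in the lung, this median was -0.01.

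Over the 45 pairs of members, Pearson's r across the 10 arrays had a median of 0.763 and ran from 0.366 (Pecam1 with Vwf) to 0.973 (Cdh5 with Esam). The arrays share a reference and, in part, a scan batch, so these are descriptions. The median was 0.627 in the authors' deposited table and 0.427 with the scanner software's signals. Kdr (0.840), Esam (0.838) and Cdh5 (0.835) had the highest median r with the other members, and Eng (0.662) had the lowest.

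The genes outside the list that were most like the mean of the members over the 10 arrays were Adcy4 (r = 0.978), Mfap2 (0.971), Serpinf1 (0.970), Slit3 (0.967), Fam43a (0.964), Myl9 (0.963), Mmrn2 (0.960), Olfr845 (0.958), Surf4 (0.958) and Olfr744 (0.957). Mmrn2 belongs to a second list of 20 endothelial genes. That list had a median r of 0.855, beside 0.087 over 19380 genes. By values seen, Erg (0.937), Ramp2 (0.915) and Robo4 (0.914) came next in it, while Ecscr (0.361), Clec14a (0.335) and Ptprb (0.067) were its least alike. Olfr845 was above background on 5 arrays.

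The second endothelial list behaved as the members did between the histologies. Of its 20 genes, 10 were higher and 10 lower in sarcomatoid tumors, with a median difference of -0.01, and none passed. Ecscr, an endothelial receptor of cell migration, differed most with 0.97 (SE 0.36, limma adjusted p = 0.44), followed by S1pr1 (0.77), a receptor for sphingosine-1-phosphate, and Cd34 (0.70). Without tumor 470, 18 of 20 were higher with a median of 0.19, and Ecscr rose by 1.29 (SE 0.25, limma adjusted p = 0.047). Tumor 470 was left out on the basis of its values, so this is a description. For lung against mammary sarcomatoid tumors, 15 of 20 were lower with a median of -0.40. Ptprb, the endothelial phosphatase that acts on Tek, went the other way with 1.10 (SE 0.38, unadjusted p = 0.018, limma adjusted p = 0.62), beside -1.78 for Cd34 and -0.96 for Icam2. With scan batch as a term 14 of 20 were higher in the lung tumors and the median was 0.25, so this direction turned with that choice.

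Ligands, co-receptors and other genes of vascular growth were counted as a list of 18. In sarcomatoid tumors 14 of 18 were higher, with a median difference of 0.16, and none passed. Vegfa, the ligand of Kdr and Flt1, stood at -0.47, 0.14 and -1.68 in the mammary sarcomatoid tumors, at -0.84 and -1.83 in the lung tumors, and at -0.44, 1.07, -0.60, 0.997 and 1.53 in the adenocarcinomas. The group difference was -1.45 (SE 0.52, unadjusted p = 0.019, limma adjusted p = 0.44). The 3 highest values were those of 131, 17 and 85, the adenocarcinomas of scan batch 3. Adenocarcinomas 105 and 470, of batch 2, lay within the sarcomatoid range of -1.83 to 0.14. The part of batch in the Vegfa difference was not tested. Nrp1, a co-receptor for VEGF, was at 1.16 (SE 0.32, unadjusted p = 0.0047, limma adjusted p = 0.38) and Vegfd, mainly a ligand of lymphatic growth, at 1.24 (SE 0.56). Between lung and mammary sarcomatoid tumors the list's median was -0.03. Vegfd read -1.08 and -0.14 in the lung tumors and -3.72 to -1.44 in the mammary ones, a difference of 1.68 (SE 0.64, limma adjusted p = 0.65). Pgf, placental growth factor, read -0.36 and 0.16 in the lung tumors and 0.33 to 2.67 in the mammary ones, and Nrp2 differed by 1.39 (SE 1.02).

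Mural cells wrap the vessel wall, and 10 of their 12 listed genes were lower in lung than in mammary sarcomatoid tumors, with a median of -0.63 and none past the test. The contractile genes Cnn1 (-4.22, SE 1.47, limma adjusted p = 0.62) and Tagln (-2.72, SE 1.17, limma adjusted p = 0.70) lay below all 8 mammary tumors in both lung tumors, and next came Kcnj8, a pericyte channel (-1.20). Pericyte and smooth muscle genes are not confined to vessels in a mammary tumor, as myoepithelial cells also express Cnn1, Tagln and Acta2. Between the histologies 10 of 12 were lower in sarcomatoid tumors, with a median of -0.44, Notch3 (-1.23), Abcc9 (-0.79) and Pdgfrb (0.70) differing most.

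Other cell types were read beside the Vwf result. Genes of lung capillaries had a median of -0.17 between lung and mammary sarcomatoid tumors, with Kit at -2.46, Hpgd at -2.28 and Tbx3 at 1.92. Kit lay below all mammary tumors in both lung tumors. The mean of the list was 0.42 to 0.43 in the lung tumors and 0.64 to 1.14 in the mammary sarcomatoid ones. In the adenocarcinomas it ran from 0.37 to 1.23, a range that holds the lung values. Only 5 of the 10 genes were above background on all arrays. Platelet genes, of interest because megakaryocytes also make Vwf, had a median of 0.12, with Treml1 (1.41, SE 0.25, unadjusted p = 0.00032, limma adjusted p = 0.31) above all mammary tumors and Pf4 (-1.10) and Itgb3 (-0.90) the other way. Of 5 measured lymphatic genes 4 were higher, with a median of 0.06, Pdpn at -0.98, Reln at 0.25 and Prox1 at 0.24. All 15 epithelial genes were lower, with a median of -2.35, Cldn7 at -3.94, Krt8 at -3.85, Epcam at -3.49, and Spint1 lower by 3.15 (fitted difference -3.15, SE 0.28) and past the test (limma adjusted p = 0.038). No epithelial gene passed with scan batch as a term, with tumor number as a fixed block of 2 pairs, with the scanner software's signals, with trend and robust settings, or without any single array other than 307 lung or 470. Macrophage genes had a median of -0.19, with Mrc1 (-1.11), Emr1 (-1.04) and C1qb (-0.96) differing most. Lung epithelium genes had a median of -0.06, with Sftpd at -1.09, Scgb3a1 at 0.80 and Foxj1 at -0.52. Skeletal muscle genes had a median of 0.04 (Myh4 0.71, Myh1 0.68, Myl1 0.67), adipocyte genes of -0.40 (Cfd -1.38, Cidea -0.99, Car3 -0.94) and proliferation genes of 0.36 (Ccna2 1.18, Mcm5 0.73, Top2a 0.71), with none past the test. The part of these cell types in the Vwf difference was not tested.

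Between the histologies, the lists of other cell types gave different medians in scan batch 2 alone and in batch 3 alone. The sarcomatoid tumors of batch 3 were both lung tumors, so site and histology change together there. Batch 2 set 307 and 594 against 105 and 470, and 470 correlated more with the sarcomatoid arrays. The part of batch, of site or of tumor 470 in the differences below was not tested. All 15 epithelial genes were lower in sarcomatoid tumors, with a median of -1.68 and Krt18 (-3.23), Dsp (-2.89) and Krt8 (-2.83) differing most, but the median was -0.22 with 6 of 15 higher in batch 2 alone and -3.59 with 15 of 15 lower in batch 3 alone. All 14 macrophage genes were higher, with a median of 1.18 (0.39 in batch 2, 1.64 in batch 3) and Emr1 (1.80), Csf1r (1.64) and Mrc1 (1.61) differing most. Skeletal muscle genes had a median of -1.07 (Actn3 -1.54, Myl1 -1.49, Acta1 -1.11), which was -3.13 in batch 2 and 1.30, with 10 of 10 higher, in batch 3. Adipocyte genes had a median of -0.44 (Cidea -1.64, Car3 -0.84, Cfd -0.82), which was -1.11 in batch 2 and 0.37 in batch 3. Lymphatic genes had a median of 0.02 (Lyve1 1.21, Pdpn 1.08, Reln -0.60), which was -1.21 in batch 2 and 0.28 in batch 3. Platelet genes had a median of -0.03 (Pf4 1.28, Treml1 0.74, Itgb3 -0.43), which was -0.09 in batch 2 and 0.14 in batch 3. Medians were 0.04 for lung capillary (Kit -1.66, Hpgd 0.77, Edn1 -0.73), 0.02 for lung epithelium (Foxj1 -0.50, Lamp3 0.22, Sftpc -0.17) and 0.18 for proliferation genes (Ccnb1 -0.44, Bub1 0.41, Birc5 0.39). None of these genes passed after adjustment over all probes. Without tumor 470 the epithelial genes Krt18, Dsp, Elf3 and Esrp1 fell and the macrophage genes Itgam and Mpeg1 rose (limma adjusted p from 0.022 to 0.049). As 470 was left out for its likeness to the sarcomatoid arrays, these calls are descriptions.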

How the data were processed

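Scanner files deposited by the authors hold spot intensity in both channels, and their normalized table holds log2 values made with limma by steps not given in the sources used here. The median intensities were corrected with normexp (offset 50) on all spots. Control spots were dropped, loess was run within each array, outlier spots by the scanner's flags (0.228% to 0.576% per array) were removed, and replicate spots were averaged by probe. The log10 ratios of red over green that the authors deposited in the same files, made by Feature Extraction software (versions 10.7.3.1, 11.0.1.1 and 11.5.1.1 per the file headers), were used to find the direction of the normalized table, and that software's processed signals, with loess, were an alternative. Probes were named by accession (22951), symbol (6659) or synonym (3109) against the GRCm38 gene table. The linear model of limma 3.58.1 (R 4.3.3) with Benjamini-Hochberg adjustment over 41174 probes and a threshold of 0.05 was used (two-sided), as tested on simulated data. Replicates are tumors, although the 5 sarcomatoid ones come from 3 tumor numbers, and the number of arrays limits the precision. Members were all named. From the 12 other lists, the 3 genes with the largest difference in a comparison were named, plus any past the threshold. The members and lists were chosen with earlier results of these data known. Alternatives covered background, normalization, the deposited table, dim probes, scan batch, slide, tumor number, left-out arrays and weights.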

Additional observations from a re-analysis of the deposited data

How the results depend on the processing

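No member passed the threshold under any alternative. Numbers of probes past it on the whole array, for sarcomatoid against adenocarcinoma (0 in the main setting), were 1 with median centring, 3 with slide as a random block, 3 with 1 value per tumor number, 99 in scan batch 3 alone, 1 with trend and robust settings, and 0 to 632 when 1 array was left out, the 632 without tumor 470. For lung against mammary sarcomatoid tumors (2) they were 4 with offset 10, 10 with the deposited table, 0 with scan batch as a term, 0 with the tumor number as a fixed block of 2 pairs, 0 with trend and robust settings, and 0 to 34 with 1 array left out (34 without 307 lung, 6 without 470, 4 without 323 lung, 1 without 105, 131 or 85, and 0 without 323, 307 or 17). For mammary sarcomatoid tumors against adenocarcinomas (0) they were 4 with scan batch as a term and 0 to 168 with 1 array left out (168 without 470). The exact test gave 0 or 1 probe below 0.05 with 1 array left out, both times a dim probe, Kdr AK054510 without 470 (-0.05, exact permutation p = 0.0079) and Vwf AK044921 without 131 (0.17, exact permutation p = 0.048).

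The members' median for lung against mammary sarcomatoid tumors (-0.68) was 0.052 with the scanner software's signals and 0.018 with scan batch as a term, and -0.97 to -0.49 with 1 array left out. Differences larger than their SE that changed sign were those of Cdh5 (1.04), Kdr (0.89) and Emcn (0.091) with the scanner software's signals, Flt1 (0.30) and Tek (0.57) with scan batch as a term, and Vwf between histologies (0.065) in mammary tumors alone. Vwf between lung and mammary sarcomatoid tumors was below 0, from -2.38 to -0.97, under the alternatives that can move it, as were its second probe, from -2.68 to -0.42, and Flt1 BC029674, from -1.47 to -0.9995. Leaving out an adenocarcinoma, Aquantile, the filter on dim probes and the trend and robust settings leave these differences as they are by construction and say nothing on their stability. Sign changes of any size, those named included, came to 43 of 338 member values for sarcomatoid against adenocarcinoma, 20 of 312 for lung against mammary sarcomatoid tumors and 47 of 312 for mammary sarcomatoid tumors against adenocarcinomas. These totals count settings that cannot move a difference, so the shares are no measure of stability. The replicate block by tumor number, fixed or random (median -0.67), changed no call of a member. The cause of these shifts was not tested.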
